A study of Mus musculus with 6 samples.

Results

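The potassium and sodium channel genes of the mouse were followed in RNA-seq libraries of liver sinusoidal endothelial cells (LSECs) from bevacizumab-sensitive or bevacizumab-resistant liver metastases. A gene was taken as a member when its symbol began with Kcn, or with Scn and a digit. Of 113 such symbols, 2 opposite-strand transcripts named with the ending os were dropped (Kcnab3os and Kcnd3os), which left 111 members among the 60832 genes of the table. The family was chosen by the difference of Kcna2 and Scn2b between the resistant and sensitive groups in these same libraries, so that difference is given for them as a description, without a test.

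There were 3 libraries from sensitive and 3 from resistant xenografts, both grown as colorectal cancer liver metastases (CRCLM) from human HCT116 colorectal cancer cells injected into the mouse liver. Bevacizumab is an antibody against VEGF-A, and the resistant state was acquired under repeated bevacizumab. The labels do not give the treatment of the sensitive animals (the Methods describe an IgG vehicle group), and the Methods name an immunodeficient nude mouse strain, whose animals lack mature T cells but keep B cells, NK cells and macrophages. Cells of both groups were isolated from the digested metastatic tissue with beads against CD146 and, per the labels, cultured for 24 h. Ribosomal RNA was depleted before sequencing, and the Methods also name an isolation of poly(A) mRNA. The labels number the samples of each group but do not say that each came from its own animal, so the spread between libraries, and every p-value that rests on it, may be partly technical.

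Total counts lay between 17599326 and 20726684 per library. Levels are given as CPM, counts scaled to the library total, and 3 counts, the limit that a count of 0 allows, correspond to 0.145 to 0.170 CPM; this limit covers counting error only. The libraries held the 14 macrophage and Kupffer cell markers at a summed 24254 to 36827 CPM and the 16 sinusoidal and pan-endothelial markers at a summed 718 to 1564 CPM. Mcam, which codes for the CD146 antigen of the beads, was at 0.303 to 3.84 CPM. The levels below are therefore those of a bead-isolated population labelled as LSECs in which macrophage transcripts were abundant, and the source cell of a channel transcript was not tested. In such bulk libraries, fewer cells of a type and less RNA per cell cannot be told apart.

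Potassium channels let potassium leave the cell and so set its resting membrane potential. The family is built of several kinds of pore: voltage-gated Kv channels with many auxiliary and silent subunits, inward rectifiers (Kcnj), tandem-pore-domain leak channels (Kcnk), and channels opened by calcium or sodium (Kcnn, Kcnma, Kcnt, Kcnu). Voltage-gated sodium channels (Scn) carry the upstroke of the action potential in nerve and muscle, through a large alpha subunit that forms the pore and small beta subunits that span the membrane a single time and also act in cell adhesion. In endothelial cells and macrophages, which do not fire action potentials, potassium channels govern the driving force for calcium entry, and in macrophages a loss of potassium is a known trigger of the NLRP3 inflammasome.

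The positions of the genes that the results turn on were taken from GENCODE M21 on GRCm38. Kcna2 lies on chr3:107101146-107115005 on the plus strand, between Kcna3 and Kcna10. Scn2b lies on chr9:45117782-45130070 on the plus strand, with Scn4b starting downstream at chr9:45138395-45154152. Kcnj8 lies on chr6:142564837-142571614 on the minus strand, Kcnk13 on chr12:99964499-100062682 and Kcnj10 on chr1:172341210-172374085, both on the plus strand. The submitters' processing notes name the build mm9, but the deposited gene lengths equalled the joined exon length of GENCODE M21 within 1 base for 98.2% of 28068 genes with counts, and the files themselves carry no coordinates.

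The sequences before the start of 4 members are shown for the contrast in their base composition: Scn2b and Kcnj8, whose libraries did not overlap between the groups, and Kcnk13 and Kcnj10, which were among the highest members. They are from RefSeq on GRCm38.p6, 5′ to 3′ on the strand of the gene, up to 250 bases before the RefSeq start and cut where the GENCODE gene begins. Capitals mark CG dinucleotides. The regions are chr9:45117626-45117781 on the plus strand for Scn2b, chr6:142571615-142571864 on the minus strand for Kcnj8, chr12:99964249-99964498 on the plus strand for Kcnk13 and chr1:172340960-172341209 on the plus strand for Kcnj10.
Scn2b: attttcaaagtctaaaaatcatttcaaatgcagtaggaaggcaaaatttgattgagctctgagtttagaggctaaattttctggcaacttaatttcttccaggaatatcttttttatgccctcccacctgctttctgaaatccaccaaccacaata
Kcnj8: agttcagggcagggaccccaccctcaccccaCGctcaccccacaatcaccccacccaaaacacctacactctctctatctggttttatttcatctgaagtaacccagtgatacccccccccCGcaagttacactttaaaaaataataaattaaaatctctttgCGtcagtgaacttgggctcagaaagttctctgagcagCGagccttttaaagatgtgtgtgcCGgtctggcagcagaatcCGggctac
Kcnk13: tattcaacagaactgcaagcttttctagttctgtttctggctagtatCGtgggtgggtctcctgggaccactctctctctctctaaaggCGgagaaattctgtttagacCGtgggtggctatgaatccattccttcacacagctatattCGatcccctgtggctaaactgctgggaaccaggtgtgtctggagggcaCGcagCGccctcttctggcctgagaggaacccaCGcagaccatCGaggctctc
Kcnj10: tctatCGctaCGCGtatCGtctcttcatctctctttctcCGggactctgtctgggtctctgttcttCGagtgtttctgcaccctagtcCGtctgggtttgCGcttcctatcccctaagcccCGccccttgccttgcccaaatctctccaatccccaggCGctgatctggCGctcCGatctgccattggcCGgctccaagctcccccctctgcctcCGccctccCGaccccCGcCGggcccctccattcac

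In these stretches Scn2b held 0 CG dinucleotides over 156 bases, Kcnj8 6, Kcnk13 8 and Kcnj10 17 over 250 bases each. Over the whole 250-base window, Scn2b had 1 CG, and 18.8% of 32851 promoter windows of the table had as few. The window of Kcna2, chr3:107101317-107101566, lay inside its GENCODE gene and is not printed, and it held 18 CG dinucleotides, a number reached by 21.7% of all windows, whose median was 6. Scn2b and Kcna2, the genes that led to this family, thus stood on opposite sides of the median. Windows were matched for 81 of the 111 members. The 17 windows of 13 genes with a mean of at least 1 CPM had a median of 6 CG, and the 91 windows of 68 genes below it a median of 7.

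Both strands of the windows were searched for TATAAA (in 12.4% of all windows), CCAAT (33.8%), GGGCGG (32.7%), GAGGAA (23.3%), TGANTCA (6.75%) and TGTTTAC (3.17%). None of these letters was present in the windows of Kcna2, Scn2b or Kcnj8, that of Kcnk13 held GAGGAA at 1 place, and that of Kcnj10 held CCAAT and GGGCGG at 2 places each. Such matches describe letters and not bound sites.

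Most of the family was silent or nearly silent at this depth. Of the 111 members, 20 had 0 counts in all 6 libraries, 56 (these 20 included) had at most 3 counts in every library, and 29 were detected in all 6. A mean of at least 1 CPM was reached by 19 members. The 3 members just above this threshold included Kcnk7 at 1.18 and Scn3b at 1.06 CPM, and the 3 just below it were Kcnn1 at 0.971, Kcnd1 at 0.941 and Kcnrg at 0.928 CPM. The 6 highest members, with Kcnab2, Kcnk6, Kcnj10, Kcnk13 and Kcna2 among them, together made up between 86.4% and 92.3% of the members' summed CPM in each library.

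**Figure D1:**
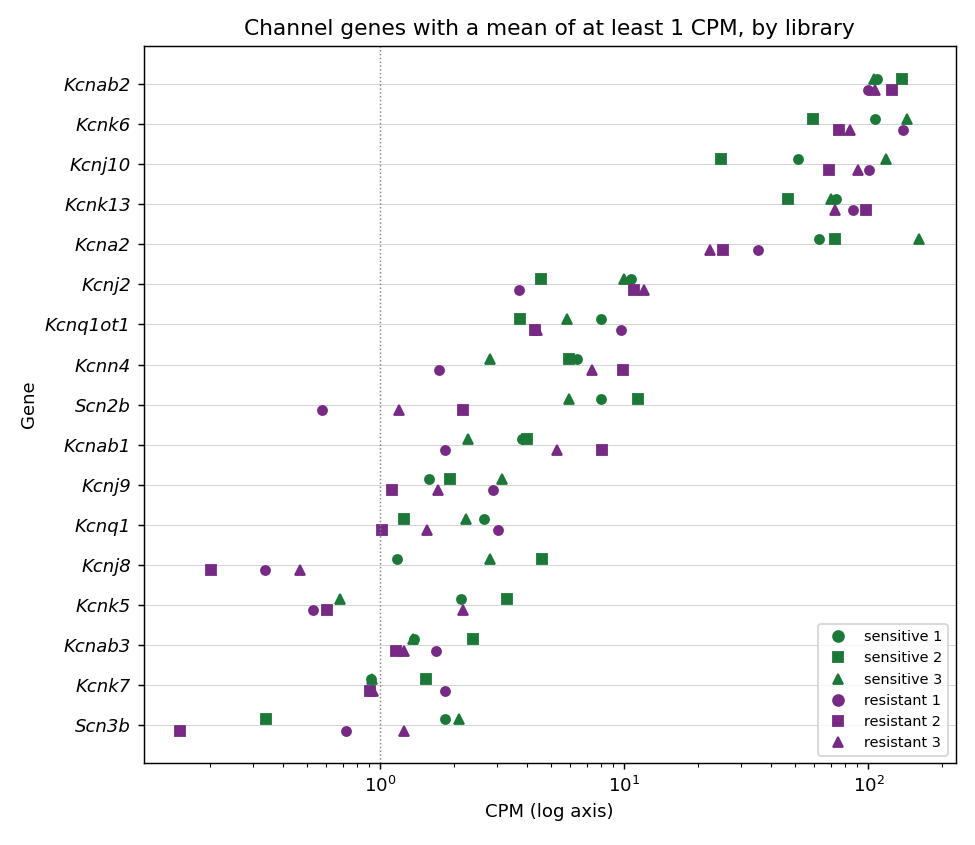
CPM of 17 of the channel genes with a mean of at least 1 CPM (log axis, 1 point per library; green, sensitive; purple, resistant; the dotted line is 1 CPM). For Kcna2, Scn2b and Kcnj8 every purple point lies to the left of every green point, while the points of the other 14 genes are mixed.

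By role, the 111 members were 30 voltage-gated pore subunits, 17 auxiliary subunits or regulators of potassium channels, 15 inward rectifiers, 14 tandem-pore-domain channels, 10 silent Kv subunits, 8 calcium- or sodium-activated channels, 10 sodium channel pore subunits, 4 sodium channel beta subunits and 3 antisense RNAs. At least 1 CPM was reached by 3, 3, 4, 4, 0, 1, 0, 3 and 1 of these, in that order. The sodium channel genes split by role: 3 of the 4 beta subunits passed 1 CPM, whereas 0 of the 10 pore subunits did. In FPKM, the deposited level that is scaled by library total and gene length (the joined exons), the pore subunits summed to between 0.0144 and 0.124 per library. The highest pore subunit, Scn8a, which codes for a sodium channel of myelinated axons, had a mean of 0.584 CPM.

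**Figure D2:**
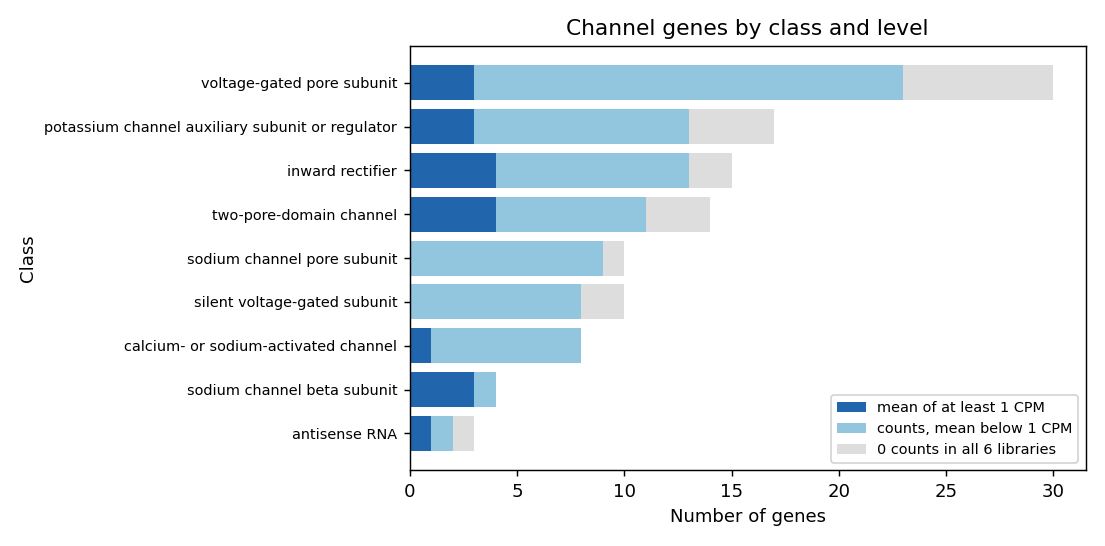
Number of channel genes in each class (horizontal axis), split into genes with a mean of at least 1 CPM, genes with counts and a lower mean, and genes with 0 counts in all 6 libraries. Sodium channel beta subunits passed 1 CPM in 3 of 4 genes, and sodium channel pore subunits and silent Kv subunits in 0 of 10 each.

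Per length, Kcnk6, Kcnk13, Kcnab2, Kcnj10 and Kcna2 were, in this order, among the highest members. Kcnk6 had a mean of 24.4 ± 8.28 FPKM and Kcnk13 of 23.9 ± 5.49 (SD over the 6 libraries). Kcnab2 had 16.2 ± 2.07 and Kcnj10 14.004 ± 6.35 FPKM. Kcnk13 was above Kcnab2 in 5 of 6 libraries, but Kcnk6 was above Kcnk13 and Kcnab2 above Kcnj10 in only 3 each, so those 2 pairs did not differ beyond their spread. Kcna2 came next with 5.31 ± 4.35 FPKM, below Kcnj10 in 5 of 6 libraries, and then Kcnj2 (1.59), Kcnn4 (1.11) and Scn2b (1.047), the last of the 9 members with a mean of at least 1 FPKM.

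The tandem-pore-domain channels, which pass a steady leak of potassium, gave the largest class sum, 32.5 to 63.1 FPKM per library. Kcnk6, a channel known for the potassium loss that precedes NLRP3 activation in macrophages, had 106.7, 59.0 and 143.6 CPM in sensitive replicates 1, 2 and 3 and 137.8, 75.4 and 84.1 CPM in resistant replicates 1, 2 and 3. Kcnk13, a leak channel known from microglia, had 73.3, 46.7 and 70.1 CPM in the sensitive and 86.2, 97.5 and 72.8 CPM in the resistant libraries. The groups overlapped for Kcnk6, and for Kcnk13 they did so by less than 1 CPM. The log2 fold change of resistant against sensitive was -0.11 (SE 0.340) for Kcnk6 and 0.38 (SE 0.216) for Kcnk13, with adjusted p-values of 0.958 and 0.940 in edgeR's quasi-likelihood test. Kcnk5, an acid-sensitive channel, had 2.14, 3.30 and 0.681 CPM in the sensitive and 0.531, 0.607 and 2.18 CPM in the resistant libraries. Kcnk7, for which no current of its own is known, stayed between 0.910 and 1.83 CPM. Of the other 10 genes of this class, Kcnk1 (mean 0.819 CPM) and Kcnk12 (0.784 CPM), the closest relative of Kcnk13, were the highest, and Kcnk2, Kcnk15 and Kcnk16 had 0 counts in every library.

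The inward rectifiers pass potassium more readily into than out of the cell and hold the membrane near the potassium equilibrium. Kcnj10, best known from glia and kidney, where it takes up and recycles potassium, was the highest, with 51.3, 24.8 and 118.2 CPM in the sensitive and 100.8, 68.6 and 90.6 CPM in the resistant libraries. The lowest and the highest values of Kcnj10 both came from the sensitive group, and its log2 fold change was 0.38 (SE 0.496). With a library left out this value ranged from 0.01 (SE 0.380, without sensitive replicate 2) to 1.15 (SE 0.318, without sensitive replicate 3), so it rested on single libraries. Kcnj2, the classical inward rectifier of endothelium and muscle, had 10.6, 4.55 and 9.97 CPM in the sensitive and 3.72, 10.9 and 12.1 CPM in the resistant libraries. Kcnj9, a subunit of G-protein-gated channels and the neighbour of Kcnj10 on chromosome 1, had 1.58, 1.93 and 3.16 CPM against 2.89, 1.11 and 1.72 CPM. The groups overlapped for all 3 of these genes. The fourth inward rectifier above 1 CPM, Kcnj8, is described below, and Kcnj1 and Kcnj3 had 0 counts in every library.

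Among auxiliary subunits, Kcnab2, a cytoplasmic beta subunit of Kv channels with the fold of an aldo-keto reductase, was the most even of the high members, with 108.4, 137.2 and 104.9 CPM in the sensitive and 99.2, 124.4 and 106.0 CPM in the resistant libraries. Its paralog Kcnab1 had 3.82, 3.98 and 2.29 against 1.83, 8.09 and 5.31 CPM, and Kcnab3 had 1.38, 2.39 and 1.36 against 1.69, 1.16 and 1.25 CPM. The groups overlapped for each of these beta subunits. The log2 fold change of Kcnab2 was -0.17 (SE 0.244). Scn3b, a beta subunit of sodium channels, had 1.83, 0.341 and 2.09 against 0.724, 0.152 and 1.25 CPM, and the groups overlapped. Scn4b, the neighbour of Scn2b, had a mean of 0.0572 CPM.

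Kcnn4, the calcium-activated channel of blood and endothelial cells, had 6.37, 5.91 and 2.82 CPM in the sensitive and 1.74, 9.86 and 7.33 CPM in the resistant libraries, and the groups overlapped. Kcnq1, a slow delayed rectifier known from heart and epithelia, and Kcnq1ot1, an imprinted antisense RNA that runs through it, overlap in exons on opposite strands of chromosome 7. Kcnq1 had 2.65, 1.25 and 2.24 against 3.04, 1.01 and 1.56 CPM, and Kcnq1ot1 had 7.996, 3.75 and 5.84 against 9.65, 4.30 and 4.37 CPM. Resistant replicate 1 was the highest library for both. The sources do not say whether counting used the strand, so reads from these genes cannot be told apart here. Kcna3, the Kv channel often studied in T cells and macrophages, had a mean of 0.248 CPM, while Kcna1, Kcna5, Kcna6 and Kcna10 had 0 counts in every library.

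The comparison of resistant with sensitive libraries was fitted over all genes. Of the 111 members, 30 passed the filter on low counts and 81 did not. Of these 30, 12 had a log2 fold change above 0 and 18 below, with a median of -0.18, beside a median of 0.01 over all 15474 genes tested. The number with an adjusted p-value under 0.05 was 0 of 30 in edgeR's quasi-likelihood test, as for all genes (0 of 15474, 0%). With an unadjusted p-value under 0.05 there were 3 of 30 (10%), all lower, beside 476 of all genes (3.08%), of which 393 were lower (2.54%) and 83 higher (0.536%). DESeq2's Wald test, which called 24 of all genes at the adjusted threshold (0.155%), also called 3 members. It gave 732 of all genes (4.73%) and 3 members an unadjusted p under 0.05. These counts include Kcna2 and Scn2b, whose difference chose the family, and are no test of either. The remaining member was Kcnj8, which passed the filter through the sensitive libraries alone, so the counts are no test of it. The libraries did not overlap between the groups for 4 of the 30 (13.3%), beside 8.39% of all genes; these were Kcna2, Scn2b and Kcnj8, lower in all resistant libraries (3.38% of all genes), and Kcnd1, higher in all of them (5.01%). As the family was picked for members that differed in this contrast, these shares are printed side by side and nothing is read from them.

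**Figure D3:**
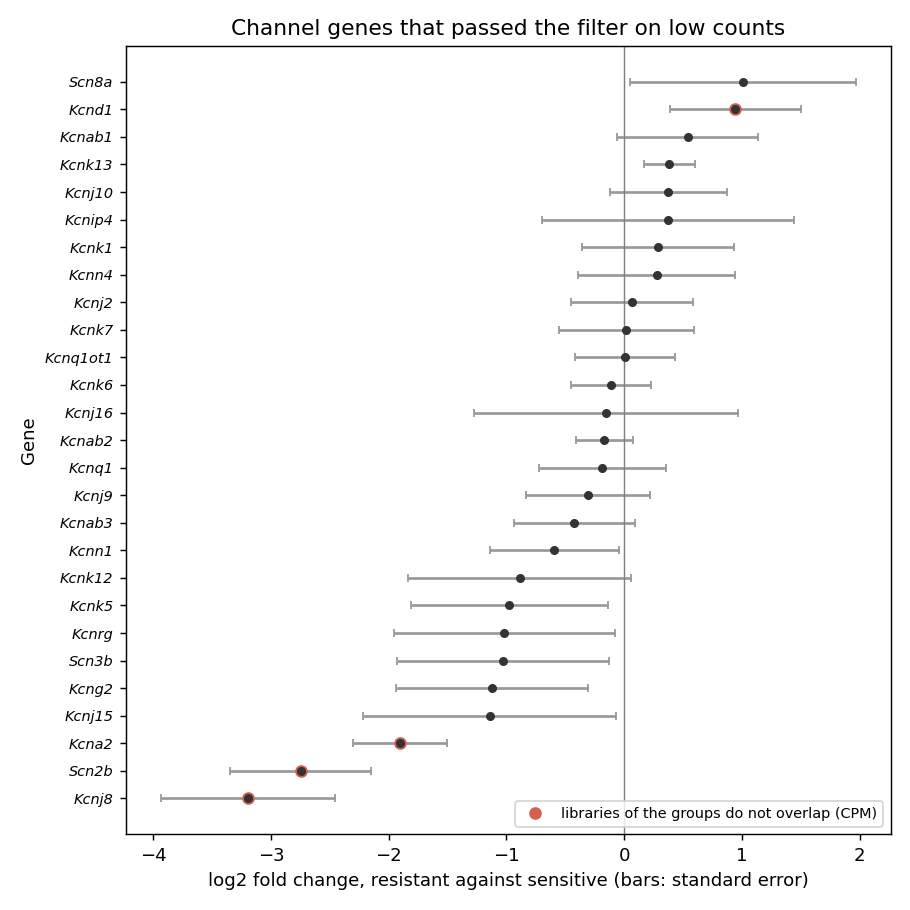
Log2 fold change of the resistant against the sensitive group for 27 of the 30 channel genes that passed the filter on low counts (points; bars, standard error, 3 libraries per group). Red rims mark the 4 genes whose libraries did not overlap, of which Kcna2, Scn2b and Kcnj8 have the most negative values and Kcnd1 lies at 0.95.

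Kcna2 codes for a Kv pore subunit known from axons, where it limits repetitive firing, and it was the only voltage-gated pore gene with a mean of at least 1 FPKM. It had 62.5, 73.2 and 160.4 CPM in sensitive replicates 1, 2 and 3, from 1227, 1288 and 3298 counts, and 35.4, 25.3 and 22.5 CPM in resistant replicates 1, 2 and 3, from 734, 500 and 432 counts. All 3 resistant libraries lay below all 3 sensitive ones, and sensitive replicate 3 was more than 2 times as high as the other sensitive libraries. Group means were 98.7 ± 53.7 CPM (sensitive) and 27.7 ± 6.81 CPM (resistant; SD, n = 3 each), with a log2 fold change of -1.90 (SE 0.401). Without sensitive replicate 3 the log2 fold change was -1.39. Kcna2 made up most of the summed FPKM of the voltage-gated pore genes in each library, and a smaller part of it in the resistant libraries. It had 5.25, 6.15 and 13.5 FPKM in the sensitive and 2.97, 2.12 and 1.89 FPKM in the resistant libraries. The class summed to 7.03, 7.05 and 15.1 FPKM in the sensitive and 4.59, 3.08 and 2.97 FPKM in the resistant libraries.

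Scn2b codes for a beta subunit that is linked to the sodium channel pore by a disulfide bond. It had 7.996, 11.4 and 5.94 CPM in sensitive replicates 1, 2 and 3, from 157, 200 and 122 counts, and 0.579, 2.17 and 1.20 CPM in resistant replicates 1, 2 and 3, from 12, 43 and 23 counts. The groups did not overlap, and the lowest sensitive library was more than 2 times as high as the highest resistant one. The means were 8.43 ± 2.74 CPM (SD, n = 3) and 1.32 ± 0.805 CPM (SD, n = 3), with a log2 fold change of -2.75 (SE 0.600). Scn2b was highest in sensitive replicate 2 and Kcna2 in sensitive replicate 3, so these genes did not rank the sensitive libraries alike. On the same scale, the sodium channel pore genes summed to 1.32, 0.227 and 0.632 CPM in the sensitive and 1.54, 0.303 and 1.35 CPM in the resistant libraries, and these overlapped.

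Kcnj8 codes for the pore of the ATP-sensitive potassium channel of vascular smooth muscle and pericytes. It had 1.17, 4.60 and 2.82 CPM in sensitive replicates 1, 2 and 3, from 23, 81 and 58 counts, and 0.338, 0.202 and 0.468 CPM in resistant replicates 1, 2 and 3, from 7, 4 and 9 counts. All resistant libraries lay below all sensitive ones, at low counts. The means were 2.87 ± 1.72 and 0.336 ± 0.133 CPM (SD, n = 3 each). The log2 fold change was -3.20 (SE 0.739), with an adjusted p-value of 0.940 in edgeR's quasi-likelihood test and of 0.0418 in DESeq2's Wald test. Every resistant library lay below the level that the filter on low counts asks for. Kcnj8 thus entered these fits through the sensitive libraries alone, where it was high, and these p-values are no test of it. Abcc9, the sulfonylurea receptor that joins Kcnj8 in this channel, was at no more than 0.354 CPM in any library and was not tested.

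Kcnd1, an A-type Kv channel, was the single member of the 30 tested with every resistant library above every sensitive one. It had 0.917, 0.341 and 0.632 CPM in the sensitive and 1.40, 1.21 and 1.14 CPM in the resistant libraries, from 6 to 29 counts. Its log2 fold change was 0.95 (SE 0.557), and it did not pass the test (adjusted p = 0.940, edgeR's quasi-likelihood test). Among the members that were not tested, Kcnip2, Kcnh1 and Kcnt2 also had every resistant library above every sensitive one, at no more than 0.627 CPM and with 0 counts in sensitive replicate 2. Kcnt2 had 1, 0 and 1 counts in the sensitive and 2, 3 and 4 in the resistant libraries, and Kcnh1 2, 0 and 2 against 3, 4 and 6. Such an order was not counted over all untested genes, so nothing is read from it.

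**Figure D4:**
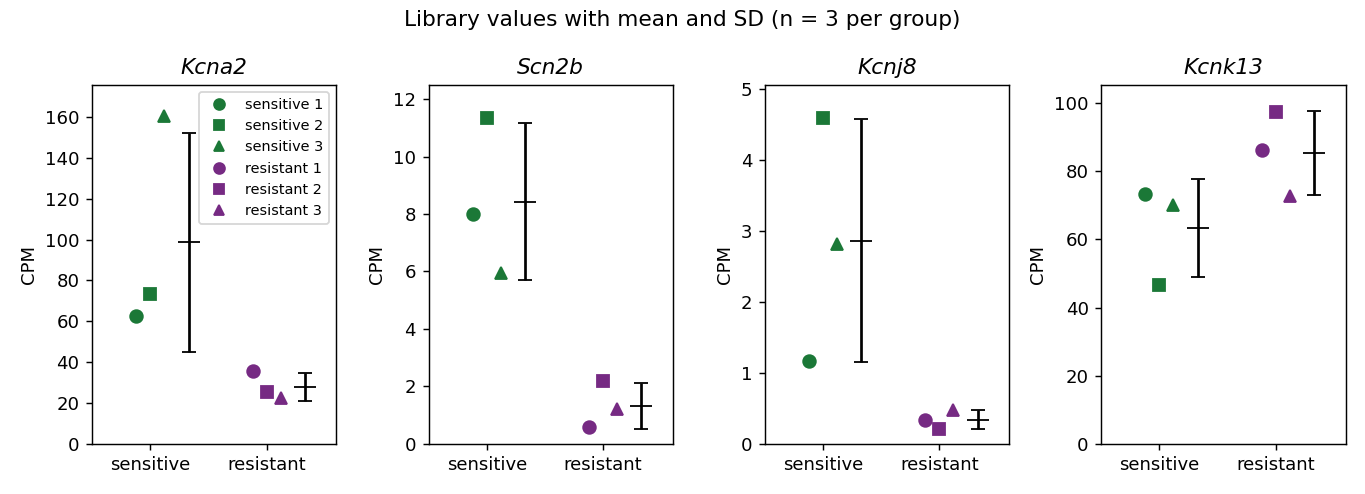
CPM of Kcna2, Scn2b, Kcnj8 and Kcnk13 in each library (points; green, sensitive; purple, resistant), with the mean and SD of the 3 libraries of each group beside them. The groups are apart for the first 3 genes, while for Kcnk13 the highest sensitive library (73.3 CPM) lies above the lowest resistant one (72.8 CPM).

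Other transcripts differed between the same libraries, and their levels are given beside these genes. Over all 15474 genes tested, 0.536% were higher and 2.54% lower at an unadjusted p under 0.05. Of 20 neuron, axon and Schwann cell markers, 6 were tested, 0 were higher and 2 lower at an unadjusted p under 0.05, and their sums were 45.1, 30.8 and 79.7 CPM in the sensitive and 27.1, 40.4 and 30.8 CPM in the resistant libraries. The 2 were Tubb3, a neuronal tubulin with 0.764, 1.65 and 35.4 against 0.145, 0.202 and 0 CPM, and Uchl1, a neuronal ubiquitin hydrolase with 4.94, 7.10 and 17.1 against 4.54, 2.07 and 3.95 CPM. Every resistant library of Tubb3 lay below the level that the filter on low counts asks for. Tubb3 thus entered the fit through the sensitive libraries alone, and its p-value is no test of it. Sensitive replicate 3, the highest library for Kcna2, was also the highest for Tubb3 and Uchl1, and Tubb3 alone gave 35.4 of the list's 79.7 CPM there. That library was also the highest for Kcnk6 (143.6 CPM), Kcnj10 (118.2 CPM) and the sum of the endothelial markers (1564 CPM). The sum of the macrophage markers was highest in sensitive replicate 2 (36827 CPM). By direction, 2 of the 6 tested neuron, axon and Schwann cell markers had a log2 fold change above 0 and 4 below, and the list's sums overlapped between the groups. Nefl, a neurofilament gene, had 0 counts in every library. Of 11 stellate cell, pericyte and smooth muscle markers, 7 were tested and 1 was lower at this p, Rgs5, a pericyte gene with 1.88, 2.16 and 2.48 against 1.496, 0.303 and 0.520 CPM. The sums of this list were 51.0 to 98.5 CPM in the sensitive and 46.0 to 235 CPM in the resistant libraries, and its median log2 fold change was 0.78. The part of these transcripts in the channel results was not tested.

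For the next lists the same shares over all genes apply (0.536% higher and 2.54% lower at an unadjusted p under 0.05), and 7619 of the 15474 genes tested had a log2 fold change below 0. The 16 endothelial markers were all tested, 15 had a log2 fold change below 0, and 5 of them (Kdr, Tek, Egfl7, Emcn and Vwf) were lower at an unadjusted p under 0.05. Their sums overlapped, at 769 to 1564 CPM in the sensitive and 718 to 1341 CPM in the resistant libraries, and the list's median log2 fold change was -0.81. Vwf, the clotting factor stored by endothelial cells, had 16.5, 18.8 and 17.5 against 8.35, 9.05 and 8.84 CPM. Of the 14 macrophage markers, 1 was higher (Cd14) and 1 lower (Timd4, a marker of resident Kupffer cells), with a median of -0.02. All 8 neutrophil markers had log2 fold changes below 0, with a median of -2.01 and 2 at an unadjusted p under 0.05 (Retnlg and Csf3r), and their sums were 639 to 6832 CPM in the sensitive and 335 to 2054 CPM in the resistant libraries. Of the 13 pancreas markers 5 were tested and 1 was lower (Cela1), with sums of 17.03 to 92.8 against 9.05 to 15.7 CPM and a median of -2.53. Of the 6 erythroid markers 2 were tested and both were lower (Hba-a1 and Hbb-bs), with sums of 4.43 to 11.02 against 0.253 to 1.35 CPM. In resistant replicates 2 and 3 the whole list summed to 0.253 and 0.312 CPM, below the level that the filter on low counts asks for. Hba-a1 and Hbb-bs thus entered the fit through the sensitive libraries, where they were high, and their p-values are no test of them. Of the 8 hepatocyte markers 7 were tested and 1 was higher (Hnf4a), with a median of 1.10, and of the 11 T cell, B cell and NK cell markers 1 was tested (Cd4, at a mean of 15.1 CPM) and 0 passed, with sums of 15.9 to 24.1 against 10.2 to 20.8 CPM. Of its other genes, Trac was at 0 in 5 of 6 libraries, and Cd3d had 5.34 CPM in sensitive replicate 2 and 0 to 0.866 CPM in the others. No marker of these lists had an adjusted p-value under 0.05. The part of all these transcripts in the values of Kcna2, Scn2b and Kcnj8 was not tested.

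Genes of related ion transport were read from lists of the same fit, in which 3.08% of all genes tested had an unadjusted p under 0.05. Of 14 sodium pump genes, whose product builds the gradients that these channels spend, 5 were tested and 0 passed an unadjusted p of 0.05 (median log2 fold change -0.11). Atp1b3, a beta subunit of the pump, had a mean of 364 CPM and a log2 fold change of -0.11 (SE 0.247). Of 9 potassium and chloride cotransporters 7 were tested and 0 passed (median 0.22), led by Slc12a7 at a mean of 99.2 CPM. Of 12 partner subunits with other names 2 were tested and 0 passed, with Amigo1 at a mean of 6.39 CPM. Of 12 other potassium, sodium and proton paths 6 were tested and 0 passed (median 0.28), led by the sodium-calcium exchanger Slc8a1 at 134.9 CPM.

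All 14 calcium entry and ATP-gated channels were tested, with a median log2 fold change of -0.01. P2rx4 (252 CPM), Trpv2 (187 CPM) and the mechanically gated Piezo1 (105.8 CPM) were the highest of them. Trpm2, a calcium-permeable channel opened by oxidative stress, had 127.4, 127.0 and 136.7 CPM in the sensitive and 99.1, 65.9 and 58.7 CPM in the resistant libraries. These did not overlap, and its log2 fold change was -0.89 (SE 0.235), with an adjusted p-value of 0.940 in edgeR's quasi-likelihood test. Of the 7 NLRP3 inflammasome genes, Pycard, the adaptor, had 113.7, 271.0 and 51.4 against 43.0, 37.6 and 21.7 CPM, a log2 fold change of -2.23 (SE 0.649) that also missed the adjusted threshold (adjusted p = 0.940), and the list's median was -0.32. At an unadjusted p under 0.05 there were 0 higher and 1 lower genes in each of these 2 lists, beside 0.536% higher and 2.54% lower over all genes tested.

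The low members differed between libraries by detection. Sensitive replicate 2 had counts for 35 members, and the other libraries for 54 to 64. Of the 72 members with counts and a mean below 1 CPM, 16 were detected in sensitive replicate 2 and 35 to 45 in the other libraries. It was also lowest in genes detected of any kind, 21792 beside 23275 to 25970, and in total count. In this library 13 members had 0 counts that were detected in all 5 others, among them Kcnj16, Kcnq5, Kcnip4 and Kcnh7. Conversely, 4 members were at least 5 times as high there as in any other library: Kcna7 with 15, Kcnj12 with 14, Kcnh3 with 12 and Kcns3 with 10 counts, beside at most 2 counts elsewhere. Kcnrg, a regulator that keeps Kv subunits from assembling, had 2.67 CPM there and 0.255 to 0.860 CPM in the other libraries. Without sensitive replicate 2, the log2 fold change was -2.03 for Kcna2, -2.37 for Scn2b and -2.57 for Kcnj8.

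**Figure D5:**
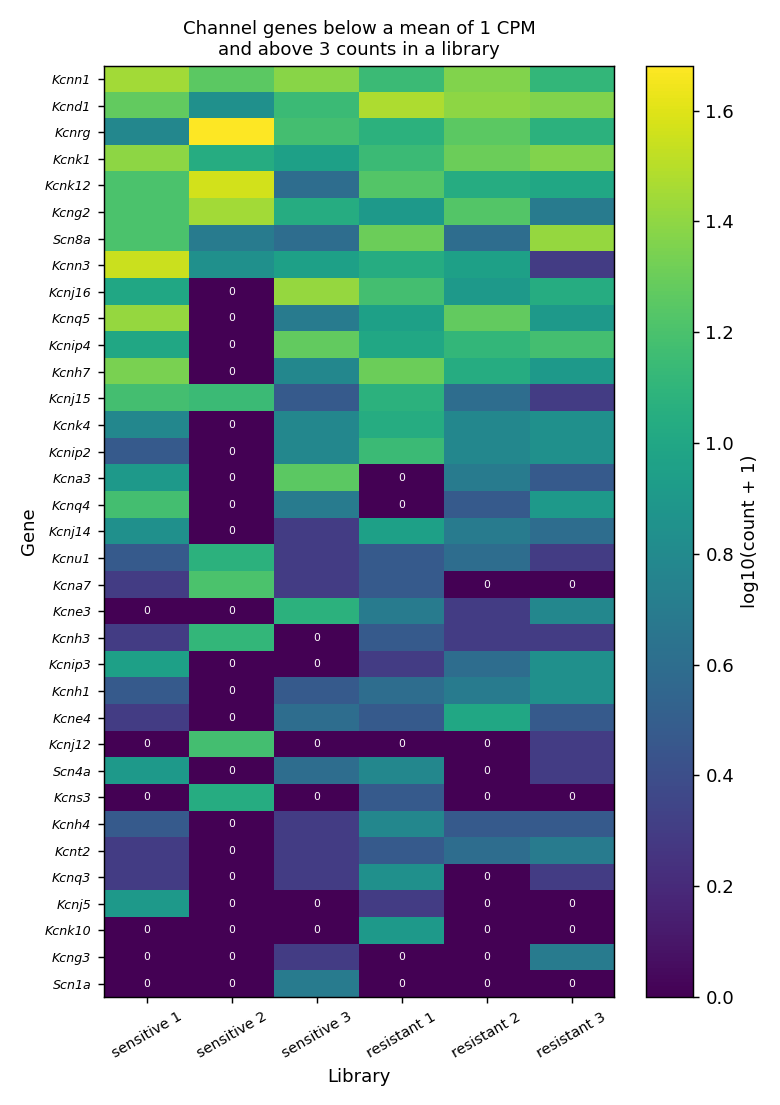
Counts of 35 of the channel genes with a mean below 1 CPM and more than 3 counts in some library (colour, log10 of count + 1; 0 marks no counts), by library. The column of sensitive replicate 2 holds the most zeros, beside high values for Kcnrg, Kcnk12, Kcna7, Kcnh3, Kcnj12 and Kcns3.

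Some of the low members share sequence with well-expressed genes on the other strand. Exons of Kcnh3 overlap Mcrs1 (41.0 to 70.3 CPM), those of Kcnh7 overlap Gca (12.4 to 22.4 CPM), and those of Kcnip4 overlap 5730480H06Rik (7.33 to 11.3 CPM). Without known strand, the counts of these 3 members are uncertain. Kcnj13, whose exons overlap Gigyf2 (39.8 to 74.2 CPM) on the other strand, had 2 counts in sensitive replicate 1 and 0 in the other libraries. Where the reads of these members came from was not tested. Among members below 1 CPM that were tested, Scn8a had 0.764, 0.227 and 0.146 CPM in the sensitive and 0.917, 0.152 and 1.30 CPM in the resistant libraries. Kcng2, a silent Kv subunit, had 0.764, 1.53 and 0.486 against 0.338, 0.809 and 0.208 CPM. The groups overlapped for both, and the standard errors of the 30 log2 fold changes reached 1.12 among such low members.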

How the data were processed

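RNA-seq libraries of primary mouse LSECs (3 per group) were grouped and numbered as in their titles. The authors deposited counts per gene, made, per the processing notes, with HISAT2 2.0.5 and featureCounts 1.5.0-p3 against mm9, and FPKM values, which the authors scaled by library total and gene length. A deposited table of the authors' own comparison (means, fold changes and p-values) was not used. Strand in counting is not given in the sources used here. Counts were fitted in R 4.3.3 with edgeR 4.0.16 (filterByExpr, TMM, robust quasi-likelihood test, two-sided) over all genes, with Benjamini-Hochberg adjustment and a threshold of 0.05. The SE of a log2 fold change was derived from that test, as the absolute fold change divided by the square root of its F statistic. CPM used library totals. The test was checked on simulated counts. Alternatives were DESeq2 1.42.0, limma-voom and limma on log2(FPKM + 1) (limma 3.58.1), other size factors and filters, a replicate block and each library left out. Members and gene lists were chosen with earlier results of these data known. Genes named are Kcna2, Scn2b, members of at least 1 CPM or an unadjusted p under 0.05, the 3 next to that level on each side, and of other lists the up to 3 highest and those with such a p; Kcnd1, Abcc9, the members singled out for 1 library, for strand or for 0 counts, and further single members were named after their values were seen. Some genes that this rule names are not reported here. Positions and promoter windows came from GENCODE M21 and RefSeq. The figures were drawn with matplotlib 3.10.9.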

Additional observations from a re-analysis of the deposited data

How the results depend on the processing

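Across 13 alternatives, the 19 members with a mean of at least 1 CPM gave 247 log2 fold changes. Of these, 223 stayed in direction and on the same side of the threshold, and 21 turned direction, 15 of them with a library left out. The other 3 passed the threshold with DESeq2: Kcnj8 (adjusted p of 0.0418, Wald test), Kcna2 and Scn2b. This is no test of any of them. The difference of Kcna2 and Scn2b chose the family, and Kcnj8 passed the filter through its sensitive libraries alone. With a library left out, Kcna2 ranged from -2.18 to -1.39, Scn2b from -3.34 to -2.36 and Kcnj8 from -3.59 to -2.57. Ranges that crossed 0 were -0.28 to 0.0497 for Kcnab2, -0.38 to 0.21 for Kcnk6, -0.20 to 0.46 for Kcnj2, -0.43 to 0.22 for Kcnq1ot1, -0.21 to 0.74 for Kcnn4, -0.69 to 0.0151 for Kcnj9, -0.67 to 0.10 for Kcnq1 and -0.34 to 0.40 for Kcnk7. Kcnj2 was also -0.12 with limma-voom and -0.0383 with the replicate block, and Kcnq1ot1 was -0.0024 with RLE size factors, -0.0027 with DESeq2, -0.0567 with limma-voom and -0.0478 with the replicate block. Members with an adjusted p under 0.05 numbered 3 with DESeq2 and 0 in every other fit, and all genes numbered 24 with DESeq2, 2 without the filter and 0 otherwise. Members with an unadjusted p under 0.05 numbered 3 in the other fits and 3 to 4 with a library left out, Kcnj10 being added without sensitive replicate 3. Of the 30 tested members, those whose libraries did not overlap numbered 4 (5 with TMM scaling) and 6 to 8 with a library left out, where fewer samples make a lack of overlap easier. Members of at least 1 CPM numbered 31 at a mean of 0.5 CPM, 12 at a mean of 2 CPM and 18 to 20 with a library left out. Same-numbered libraries correlated at -0.00093, 0.0343 and 0.194 in their deviations from the group means. With 3 libraries per group such values cannot decide whether same-numbered libraries share an animal or a batch, and the labels give only the number. With the replicate block, 467 of all genes and 3 members had an unadjusted p under 0.05, and 0 members passed the adjusted threshold. For these changes the cause was not tested. At 3 libraries per group the smallest exact two-sided permutation p is 0.1, and members near 3 counts were not measurable at this depth.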
